A study of Mus musculus with 6 samples.

Results

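The genes described here are 10 tubulin genes of the mouse, taken from a bulk RNA sequencing count table as the entries whose names equal Tuba1a, Tuba1b, Tuba1c, Tuba4a, Tubb2a, Tubb2b, Tubb4b, Tubb5, Tubb6 and Tubg1. All 10 were found among the 24421 gene entries, and all 10 had enough counts to be tested. The libraries came from mouse induced pluripotent stem cells (iPSCs), cells reprogrammed to a state like that of embryonic stem cells. In 3 libraries (SRF KO) both alleles of the gene of serum response factor were deleted (SRFΔ/Δ), and in the other 3 (WT) both alleles were intact but conditional (SRFf/f). Cells of both genotypes were grown in medium with serum and were given no other treatment by the labels. The labels do not say how the alleles were recombined, whether each genotype is 1 clone, or whether the replicates are separate cultures, so p-values measure only the spread between these samples, which may be technical.

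Tubulins build microtubules, the hollow filaments that form the mitotic spindle, carry intracellular transport and make the core of cilia and axons. An alpha-tubulin and a beta-tubulin (Tuba and Tubb genes) pair into the dimer that polymerises, while gamma-tubulin (Tubg genes) sits in ring complexes that start new filaments. The alpha and beta isotypes are encoded by separate genes whose proteins are close to each other and differ mainly in their C-terminal tails, and cells adjust tubulin messenger RNA to the amount of free dimer. SRF is a transcription factor best known for binding CArG boxes in genes of the actin cytoskeleton, the other main filament system of the cell.

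The coding starts are shown because the first 4 codons (in capitals) encode the N-terminal residues that are read on the ribosome when cells lower alpha- and beta-tubulin mRNA in response to free dimer. Each run gives the first 30 coding bases, 5′ to 3′, from the GENCODE M21 transcripts (GRCm38, the assembly also called mm10).
Tuba1a: ATGCGTGAGTGCatctccatccatgttggc
Tuba1b: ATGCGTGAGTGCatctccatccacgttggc
Tuba1c: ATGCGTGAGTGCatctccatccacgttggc
Tuba4a: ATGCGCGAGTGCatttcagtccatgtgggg
Tubb2a: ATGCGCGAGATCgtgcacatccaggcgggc
Tubb2b: ATGCGAGAGATCgtgcacattcaggcgggc
Tubb4b: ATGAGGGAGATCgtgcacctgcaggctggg
Tubb5: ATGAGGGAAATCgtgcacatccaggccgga
Tubg1: ATGCCGAGAGAAatcatcaccctacagttg
The 4 alpha genes share one kind of start and the 4 beta genes shown another, with changes between codons of the same residue, and the gamma gene has neither. The start of Tubb6 is not shown.

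The last 60 coding bases are shown for 4 beta genes because they encode the acidic tail in which isotypes differ, and because they show how little separates a close pair. Capitals mark the bases that differ within the pair Tubb2a and Tubb2b, and no base is marked in Tubb4b or Tubb5. The 3 marked changes are between codons of the same residue, so this stretch encodes the same residues in Tubb2a and Tubb2b.
Tubb2a: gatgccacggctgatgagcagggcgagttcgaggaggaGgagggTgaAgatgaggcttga
Tubb2b: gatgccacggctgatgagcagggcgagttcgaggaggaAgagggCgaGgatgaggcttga
Tubb4b: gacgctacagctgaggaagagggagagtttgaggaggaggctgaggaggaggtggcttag
Tubb5: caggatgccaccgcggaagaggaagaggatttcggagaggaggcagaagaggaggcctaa
Over the whole coding sequence, Tubb2a and Tubb2b were 96.5% identical and Tuba1a and Tuba1b were 98.3% identical. Other pairs of beta members were 80.3% to 84.6% identical.

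This likeness bears on how reads were assigned. Of the 150-base windows of the annotated transcripts, 54.7% for Tuba1a, 57.9% for Tuba1b and 46.7% for Tuba1c also occur in the transcripts of another gene, pseudogenes included. The share was 20.1% for Tubb2b, 27.9% for Tubb2a, 16.8% for Tubb4b and 0.907% for Tubg1, and it was 0 for Tuba4a, Tubb5 and Tubb6. How the authors counted reads that fit several genes is not given in the sources used here, so the values of Tuba1a, Tuba1b, Tuba1c, Tubb2a, Tubb2b and Tubb4b are uncertain to that extent. Sums over the Tuba1 group and the Tubb2 pair are given below. Both also share windows with other genes, such as Gm49450 for the Tuba1 group and Tubb2a-ps2 for the Tubb2 pair. The sums do not account for reads given to those other genes or left out. Tubb4b shares its windows with the pseudogene Tubb4b-ps1, for which no value is given here.

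Across the 10 genes, 1 rose (Tubb4b), 4 fell (Tubb2b, Tuba1a, Tubb5 and Tubg1) and 5 did not pass the test in SRF KO cells. The test was edgeR's quasi-likelihood test of SRF KO against WT, fitted to all entries of the table, and a gene passed when its Benjamini-Hochberg adjusted p was under 0.05. Among all 14778 genes tested, 42.4% passed, 21.2% as higher and 21.3% as lower, so the count of tubulin genes past the test lay near the background. The median log2 fold change was -0.08 over the 10 tubulin genes and -0.01 over all genes tested. The values of SRF KO and WT did not overlap for 5 of the 10 genes, against 52.7% of all genes tested. In sum, the 10 genes took 0.349% to 0.363% of all counts in the SRF KO libraries and 0.335% to 0.392% in the WT libraries, ranges that overlap.

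**Figure D1:**
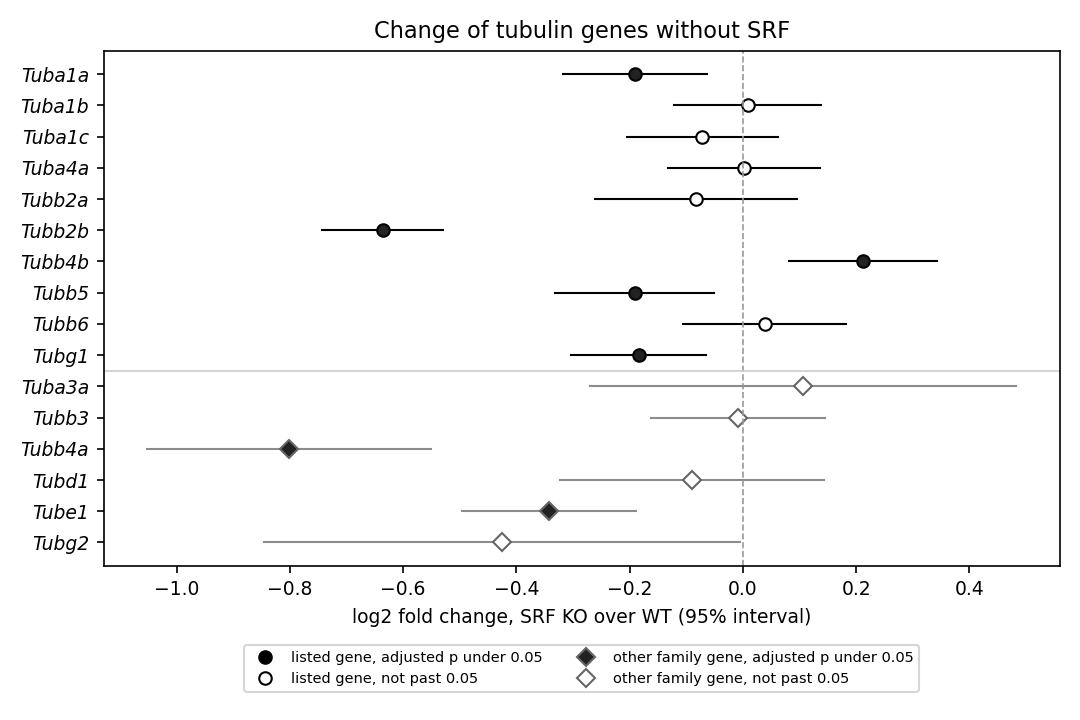
Log2 fold change of SRF KO over WT (horizontal axis) with its 95% interval for the 10 listed tubulin genes (circles) and 6 other tubulin family genes (diamonds), filled where the adjusted p was under 0.05. Tubb2b lies farthest to the left of the listed genes at -0.64, Tubb4b is the filled point to the right at 0.21, and Tuba1a, Tubb5 and Tubg1 lie close together at -0.19, -0.19 and -0.18.

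The targeted gene followed its labels. Srf was at 4.20, 3.17 and 4.53 CPM (counts relative to the TMM-scaled library total, the scale of all levels below unless stated) in SRF KO and at 36.6, 29.7 and 37.2 CPM in WT, a log2 fold change of -3.12 (adjusted p = 8.1e-09). Libraries held 26321602 to 36680156 counts, and each tubulin member had at least 511 counts in each library. Pluripotent cell markers were abundant in all libraries, led by Dppa5a at 1220.4 CPM in SRF KO and 1636 in WT, Tdgf1 (1209 and 1384) and Pou5f1 (773 and 818). Of the 10 pluripotency markers tested, 1 was higher (10%) and 4 were lower (40%). Among all genes tested 21.2% were higher and 21.3% lower, shares to be read beside the marker counts below too. The summed level of the pluripotency markers was 5400 to 5522 CPM in SRF KO and 6278 to 6757 in WT. Without WT replicate 2, 7 were lower, and the 1 higher marker was lost without SRF KO replicate 1 or 2 or WT replicate 1 or 3. All 11 tested markers of primitive and visceral endoderm were higher (summed level 940.5 to 1035 CPM against 39.5 to 42.6), and so were all 12 fibroblast markers (960.2 to 1145 CPM against 473 to 528). Of 11 tested neuron markers, 1 was higher (9.09%) and 5 were lower (45.5%), with a summed level of 232 to 246 CPM against 317 to 337. Stmn2 made up most of that sum, which without it was 93.8 to 99.3 CPM against 114 to 120.4, a sum added after seeing the data. No marker of these lists was at 0 in all libraries. The part of these cell types in the tubulin values was not tested, and in bulk RNA fewer cells of a type and less RNA per cell cannot be told apart.

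Levels of different genes were set side by side only per kilobase of annotated exon. In WT libraries the order was Tuba1b (507 CPM per kb), Tubb5 (424), Tubb4b (212), Tuba1c (125), Tuba1a (121), Tubb2b (91.2), Tuba4a (28.7), Tubg1 (23.0), Tubb6 (20.6) and Tubb2a (13.8). Tuba1c and Tuba1a overlapped between WT libraries, and so did Tubg1 and Tubb6, while the other neighbours did not. In SRF KO libraries the order was the same except that Tubb6 (21.1 CPM per kb) stood above Tubg1 (20.2), with no overlap between the libraries of the 2 genes. Tuba1c and Tuba1a overlapped in SRF KO too, and Tuba1b, Tubb5 and Tubb4b were the 3 leading genes in both genotypes. This order depends on the annotated exon lengths.

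**Figure D2:**
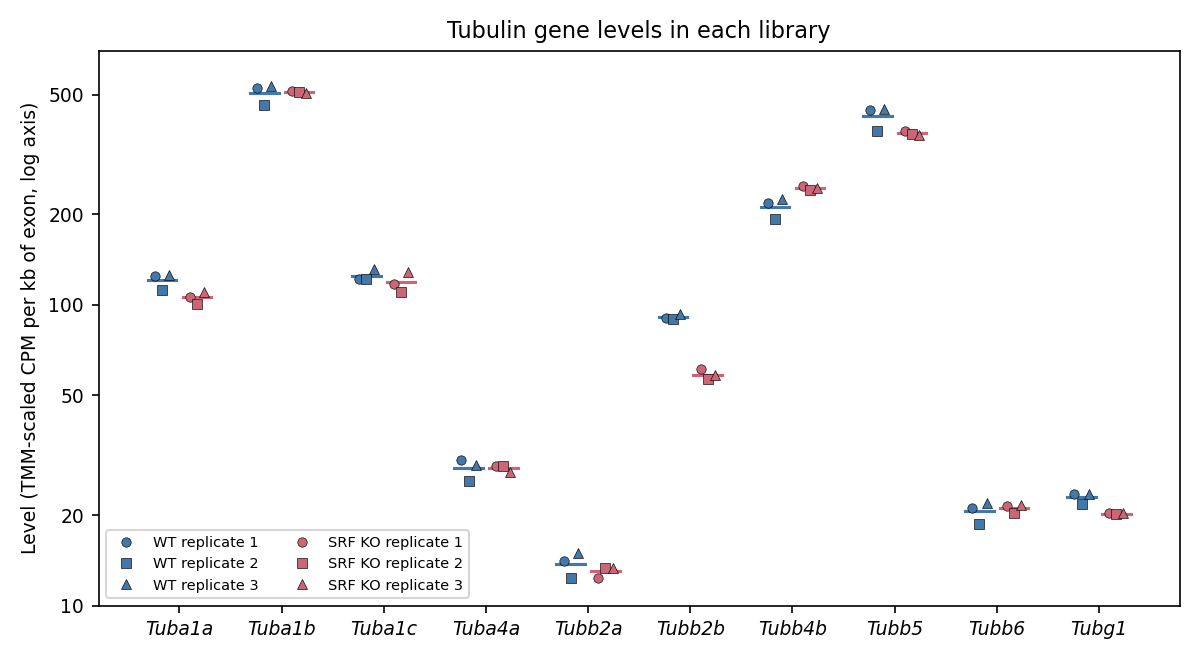
Level of each of the 10 tubulin genes in each library, in TMM-scaled CPM per kilobase of exon on a log axis, with WT in blue, SRF KO in red, marker shapes for replicates 1 to 3 and a line at each group's mean. Tubb2b stands lower in SRF KO with no overlap of the groups, Tubb4b stands higher, and Tuba1b and Tuba4a have nearly the same mean in both groups.

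Tubb2b had the largest change of the members. Tubb2b encodes a beta isotype that is abundant in the developing nervous system and whose human counterpart is mutated in cortical malformations. Its level was 140.1, 129.8 and 133.9 CPM in SRF KO and 208, 206 and 214 CPM in WT. All 3 SRF KO libraries lay below all WT libraries, and the spread inside each group was small beside the gap. The mean was 135 ± 5.19 CPM (SD, n = 3) against 209 ± 4.29, and it fell by 35.7%. The log2 fold change was -0.64 (SE 0.05, 95% interval -0.74 to -0.53, adjusted p = 1.57e-06 by edgeR's quasi-likelihood test). Of all genes tested, 771 (5.22%) fell by more. The call of Tubb2b held in every alternative run, with log2 fold changes of -0.60 to -0.67.

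Tubb2a, the near copy of Tubb2b on the same chromosome, did not pass the test. Its level was 19.9, 21.5 and 21.5 CPM in SRF KO and 22.7, 19.9 and 24.0 CPM in WT, and the groups overlapped. The log2 fold change was -0.08 (95% interval -0.26 to 0.09, adjusted p = 0.448). Summed over both genes, which does not depend on how reads were split between them, the level was 160, 151 and 155 CPM in SRF KO and 231, 225 and 238 CPM in WT, again with no overlap. The ratio of Tubb2b to Tubb2a per kilobase was 4.94, 4.23 and 4.38 in SRF KO and 6.44, 7.27 and 6.25 in WT. This ratio and the ratios below for other gene pairs were chosen after the values were seen and are given with no test.

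Tubb4b was the member that rose. It encodes a widely expressed beta isotype that is also a main beta-tubulin of ciliary axonemes. Its level was 521, 502 and 512 CPM in SRF KO and 455, 402 and 468 CPM in WT, and all SRF KO libraries lay above all WT libraries. The mean of 512 ± 9.25 CPM (SD, n = 3) against 442 ± 35.4 was a rise of 15.8%, with a log2 fold change of 0.21 (SE 0.06, 95% interval 0.08 to 0.34, adjusted p = 0.0145). Of all genes tested, 3660 (24.8%) rose by more. The call was lost when SRF KO replicate 1 (adjusted p = 0.0677) or SRF KO replicate 3 (adjusted p = 0.0545) was left out, with log2 fold changes of 0.20 and 0.21. Markers of multiciliated cells, both regulators such as Foxj1 and ciliary parts such as Rsph1, summed to 9.37 to 10.7 CPM in SRF KO and 12.9 to 14.8 CPM in WT. Of the 4 tested, 0 were higher and 1 was lower (25%, against 21.3% of all genes). The counts were the same at an unadjusted p under 0.05 and by DESeq2. The lower gene was Rsph1, at 2.79 ± 0.108 CPM in SRF KO and 6.44 ± 0.383 in WT, and the lower sum rested mainly on it. None of the others passed, with Foxj1 at 3.74 CPM in SRF KO and 4.09 in WT.

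Tubb5, the most abundant beta gene per kilobase and a housekeeping isotype of dividing cells, fell by 12.4%. Its level was 1257, 1232 and 1219 CPM in SRF KO and 1480, 1263 and 1491 CPM in WT. The groups did not overlap, but WT replicate 2 lay close to the highest SRF KO library. The log2 fold change was -0.19 (SE 0.06, 95% interval -0.33 to -0.05, adjusted p = 0.0326). The call was lost when any library other than WT replicate 2 was left out (adjusted p = 0.0832 to 0.122), and with scaling to library totals (adjusted p = 0.0831), and without WT replicate 2 the log2 fold change was -0.26.

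Tubb6 encodes a divergent beta isotype. It was at 52.1, 49.7 and 52.8 CPM in SRF KO and at 51.6, 45.5 and 53.4 CPM in WT. The groups overlapped, with a log2 fold change of 0.04 (95% interval -0.11 to 0.18, adjusted p = 0.679).

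Of the 4 alpha genes, Tuba1a fell and the other 3 did not pass the test. Tuba1a, the isotype that is high in postmitotic neurons and mutated in human lissencephaly, was at 192, 182 and 199.7 CPM in SRF KO and at 226, 203 and 227 CPM in WT. All SRF KO libraries lay below all WT libraries, with a narrow gap between SRF KO replicate 3 and WT replicate 2. The mean fell by 12.4%, and the log2 fold change was -0.19 (SE 0.06, 95% interval -0.32 to -0.06, adjusted p = 0.0213). The call was lost with scaling to library totals (adjusted p = 0.0667) and without SRF KO replicate 1 or 2 or WT replicate 1 or 3 (adjusted p = 0.0701, 0.0948, 0.0895 and 0.059).

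Tuba1b, the most abundant of the tubulin genes per kilobase and a ubiquitous isotype, was at 961, 955 and 951 CPM in SRF KO and at 988, 864 and 998 CPM in WT. The SRF KO libraries lay inside the range of the WT libraries. The log2 fold change was 0.01 (95% interval -0.12 to 0.14, adjusted p = 0.926). Tuba1c, an alpha isotype of dividing cells, was at 269, 253 and 294 CPM in SRF KO and at 278, 279 and 300.3 CPM in WT. These groups overlapped as well, with a log2 fold change of -0.07 (95% interval -0.20 to 0.06, adjusted p = 0.382). Tuba4a, whose protein, unlike that of the other 3, is made without the C-terminal tyrosine, was at 108, 108 and 103 CPM in SRF KO and at 113, 96.4 and 109 CPM in WT, and the groups overlapped (adjusted p = 0.987). Its 95% interval of the log2 fold change ran from -0.13 to 0.14, so changes beyond that size lay outside it. Summed over Tuba1a, Tuba1b and Tuba1c, the level was 1422, 1390.3 and 1445 CPM in SRF KO and 1492, 1346 and 1525 CPM in WT, and the groups overlapped.

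Tubg1 encodes the main gamma-tubulin of dividing cells. Its level was 45.97, 45.6 and 45.9 CPM in SRF KO and 53.3, 49.3 and 53.5 CPM in WT. The SRF KO libraries were nearly level with each other and all lay below the WT libraries. The mean fell by 11.9%, with a log2 fold change of -0.18 (SE 0.05, 95% interval -0.30 to -0.06, adjusted p = 0.0186). The call was lost with scaling to library totals (adjusted p = 0.0593) and when any library other than WT replicate 2 was left out (adjusted p = 0.0565 to 0.081).

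The falls of Tuba1a, Tubb5 and Tubg1 were thus of like size, from 11.9% to 12.4%, and each lay close to the threshold. WT replicate 2 was the lowest of the WT libraries for 9 of the 10 members, all but Tuba1c. Without it the count stayed at 1 higher and 4 lower. The count of members that fell was 1 with scaling to library totals, 1 without SRF KO replicate 1, SRF KO replicate 2, WT replicate 1 or WT replicate 3, and 2 without SRF KO replicate 3. At an unadjusted p under 0.05 by edgeR, these runs gave 4 lower members, or 3 without WT replicate 1. DESeq2 gave 1 higher and 4 lower.

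The isotype mix was described by giving each gene its share of the summed alpha or beta level per kilobase of the listed members alone. Tubb3, a beta gene described below, was at 21.1 CPM per kb in SRF KO and 21.2 in WT and is not in the beta sum. Tubb4b made up 34.5, 34.3 and 34.8% of the beta sum in SRF KO and 27.6, 27.8 and 28.0% in WT. Tubb5 made up 52.4% ± 0.418 (SD, n = 3) in SRF KO and 55.7% ± 0.811 in WT, and Tubb2b 8.27% ± 0.193 and 12.02% ± 0.802. These 3 shares did not overlap between the groups, with Tubb4b above and the other 2 below. Shares of the same sum depend on each other, so they are not separate observations. Tubb6 made up 2.70% ± 0.0247 in WT and 2.98% ± 0.0852 in SRF KO with no overlap, although its level overlapped (log2 fold change 0.04). The share of Tubb2a overlapped (1.81% in WT and 1.84% in SRF KO). Among the alpha genes, Tuba1a made up 13.9% ± 0.428 in SRF KO and 15.5% ± 0.130 in WT with no overlap, and the shares of Tuba1b, Tuba1c and Tuba4a overlapped.

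**Figure D3:**
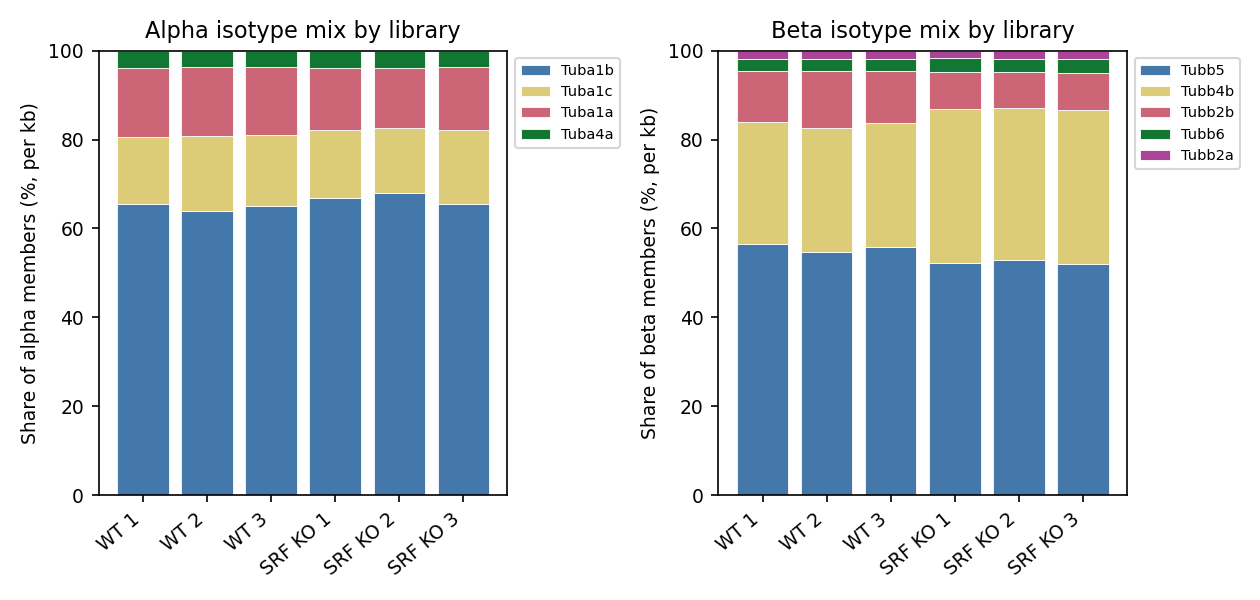
Share of each isotype (percent, vertical axis) in the summed level per kilobase of the 4 alpha genes (left) and the 5 beta genes (right) in each of the 6 libraries. In the right panel the Tubb4b band is wider in all 3 SRF KO libraries (34.3 to 34.8%) than in the WT libraries (27.6 to 28.0%), and the Tubb2b band is narrower.

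A share or a ratio within a library does not depend on how libraries are scaled. The ratio of Tubb4b to Tubb5 per kilobase was 0.660, 0.650 and 0.669 in SRF KO and 0.490, 0.507 and 0.501 in WT, a log2 difference of 0.40 with no overlap of the groups. The ratio of Tuba1a to Tuba1b was 0.208, 0.198 and 0.218 in SRF KO and 0.238, 0.244 and 0.236 in WT. The summed alpha level was 764 ± 12.3 CPM per kb in SRF KO and 782 ± 52.5 in WT, and the summed beta level was 709 ± 11.2 and 761 ± 60.002 CPM per kb (SD, n = 3 each). Both sums overlapped between the groups. The ratio of the beta to the alpha sum was 0.943, 0.935 and 0.911 in SRF KO and 0.981, 0.960 and 0.980 in WT, which did not overlap.

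Of 10 other genes of the tubulin family, 6 had enough counts to be tested. By edgeR, 2 of these fell (33.3%, against 21.3% of all genes) and none rose (against 21.2%). At an unadjusted p under 0.05, 0 were higher and 3 lower, and DESeq2 gave 0 higher and 2 lower. Tubb4a, a beta isotype of brain, was at 3.01, 2.83 and 2.97 CPM in SRF KO and at 5.14, 4.86 and 5.37 CPM in WT, with no overlap and a log2 fold change of -0.80 (SE 0.11, adjusted p = 0.000193). Tube1, the epsilon-tubulin of centrioles, was at 13.2, 12.8 and 13.0 CPM in SRF KO and at 16.7, 16.7 and 16.0 CPM in WT, with no overlap and a log2 fold change of -0.34 (SE 0.07, adjusted p = 0.00227). Tubb3, the neuronal beta isotype, was at 39.5 ± 1.21 CPM in SRF KO and 39.6 ± 3.51 in WT, with a log2 fold change of -0.01 (adjusted p = 0.934), whose sign was positive under DESeq2 and with other scalings. The log2 fold changes of Tuba3a, Tubd1 (delta-tubulin) and Tubg2 (the other gamma-tubulin) were 0.11, -0.09 and -0.43 with adjusted p of 0.656, 0.536 and 0.0978, and Tubg2 passed without WT replicate 2 (-0.60, adjusted p = 0.00415). Tuba3b, Tuba8, Tubal3 and Tubb1 had too few counts to be tested.

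The genes that act on tubulin were taken from 5 lists, described by their counts and medians, to be read beside the 21.2% of all tested genes that were higher and the 21.3% that were lower. Of the 23 genes of tubulin folding and dimer assembly (prefoldin, the CCT chaperonin, tubulin cofactors and the factors of autoregulation), 7 fell (30.4%) and none rose, with a median log2 fold change of -0.12 (0 higher and 11 lower at an unadjusted p under 0.05, and 0 higher and 6 lower by DESeq2). The count of 7 became 4 when SRF KO replicate 3 was left out and 11 when WT replicate 3 was. Tbcel, a cofactor E-like protein that destabilises tubulin, fell from 40.8 ± 2.53 to 31.2 ± 0.947 CPM (log2 fold change -0.39, adjusted p = 0.00054). Vbp1, a prefoldin subunit, fell from 152 ± 12.9 to 122 ± 5.95 CPM (-0.32, adjusted p = 0.00216). Scaper, which takes part in the decay of tubulin mRNA that the coding starts shown above are read for, fell from 24.4 ± 1.86 to 18.2 ± 0.903 CPM (-0.42, adjusted p = 0.00112). Ttc5, which reads the nascent N-terminus in the same decay and was picked out after its values were seen, fell from 51.9 ± 1.84 to 44.9 ± 1.09 CPM (-0.21, adjusted p = 0.00895).

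Of the 20 genes of the gamma-tubulin ring and augmin, the partners of Tubg1, 6 fell (30%, against 21.3% of all genes) and none rose, with a median of -0.09 (1 higher and 6 lower at an unadjusted p under 0.05, and 0 higher and 5 lower by DESeq2). Genes that rose numbered 1 with scaling to library totals and 2 without WT replicate 2. Haus1, an augmin subunit, fell from 39.6 ± 1.96 to 30.1 ± 0.808 CPM (log2 fold change -0.40, adjusted p = 0.000354). Mzt1, a small subunit of the ring complex, fell from 63.7 ± 3.42 to 48.9 ± 3.96 CPM (-0.38, adjusted p = 0.000819). Ninl, a centrosomal protein that binds the ring complex, fell from 41.6 ± 1.48 to 32.9 ± 1.61 CPM (-0.34, adjusted p = 0.000959).

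Of 21 tested enzymes that modify tubulin (29 listed), 3 were higher (14.3%) and 5 lower (23.8%), with a median of -0.04, and these shares lay near or below the 21.2% and 21.3% of all genes. The count of 5 lower became 3 when replicate 1 of either genotype or SRF KO replicate 2 was left out. Vash1, a carboxypeptidase that removes the terminal tyrosine of alpha-tubulin, fell from 28.6 ± 1.82 to 19.7 ± 1.33 CPM (log2 fold change -0.54, adjusted p = 0.000172). Ttll6, a glutamylase, fell from 8.99 ± 0.335 to 5.77 ± 0.419 CPM (-0.64, adjusted p = 0.000247), while Ttll4, also a glutamylase, rose from 105 ± 1.21 to 121 ± 2.38 CPM (0.21, adjusted p = 0.00361). The 2 tubulin deacetylases moved apart, Hdac6 falling from 91.4 ± 4.33 to 73.4 ± 3.20 CPM (-0.32, adjusted p = 0.000785) and Sirt2 rising from 22.9 ± 2.19 to 28.6 ± 0.238 CPM (0.32, adjusted p = 0.00565).

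Of 26 tested stabilisers and structural microtubule-associated proteins (28 listed), 5 were higher (19.2%) and 8 lower (30.8%), with a median of -0.03, against 21.2% and 21.3% of all genes. Map2, a dendritic microtubule-associated protein, had the largest fall of the named genes of these lists, from 24.2, 26.5 and 24.5 CPM in WT to 10.1, 10.3 and 9.58 CPM in SRF KO (log2 fold change -1.33, SE 0.08, adjusted p = 1.19e-07). Mapt, which encodes tau, fell from 30.9 ± 0.957 to 18.7 ± 0.896 CPM (-0.73, adjusted p = 6.22e-06), and Map7, which recruits kinesin, fell from 120.4 ± 3.84 to 92.6 ± 2.67 CPM (-0.38, adjusted p = 9.15e-05). Against these, Map1a rose from 38.1 ± 0.559 to 49.1 ± 1.52 CPM (0.37, adjusted p = 0.000243), Clip2, a plus-end protein, rose from 14.6 ± 0.835 to 21.3 ± 2.36 CPM (0.54, adjusted p = 0.000634), and Dclk1, a doublecortin-like kinase, rose from 2.28 ± 0.153 to 4.25 ± 0.609 CPM (0.91, adjusted p = 0.000424).

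Of 14 tested destabilisers and severing enzymes (16 listed), 10 fell (71.4%, against 21.3% of all genes) and none rose, with a median of -0.22 (0 higher and 10 lower at an unadjusted p under 0.05, and 0 higher and 7 lower by DESeq2). The count of 10 became 5 when either SRF KO replicate 1 or 3 was left out. Stmn2, a stathmin that binds tubulin dimers and is high in neurons, fell from 204, 224 and 197 CPM in WT to 144, 146 and 138 CPM in SRF KO (log2 fold change -0.54, SE 0.06, adjusted p = 1.75e-05). Stmn1, the stathmin of dividing cells, fell from 164 ± 7.92 to 139 ± 5.74 CPM (-0.25, adjusted p = 0.00335). Fignl1, a fidgetin-like ATPase, fell from 124 ± 6.99 to 100.7 ± 4.71 CPM (-0.30, adjusted p = 0.00148). Stmn2 is itself the most abundant gene of the neuron marker list, so its fall and the lower sum of that list are not separate observations. Of the other neuron markers, Elavl3, an RNA-binding protein, fell (log2 fold change -0.72, adjusted p = 7.25e-06), and so did Ina (-0.28, adjusted p = 0.00307), Snap25 (-0.52, adjusted p = 0.0368) and Syt1, which had few counts (adjusted p = 0.00277). Neurod1, a transcription factor, rose from 8.66 ± 1.06 to 12.7 ± 1.60 CPM (0.56, adjusted p = 0.00237), and Elavl4, Nefl, Nefm, Gap43 and Rbfox3 did not pass the test. Of these markers, those other than Stmn2, Elavl3 and Ina were named after their values were seen.

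**Figure D4:**
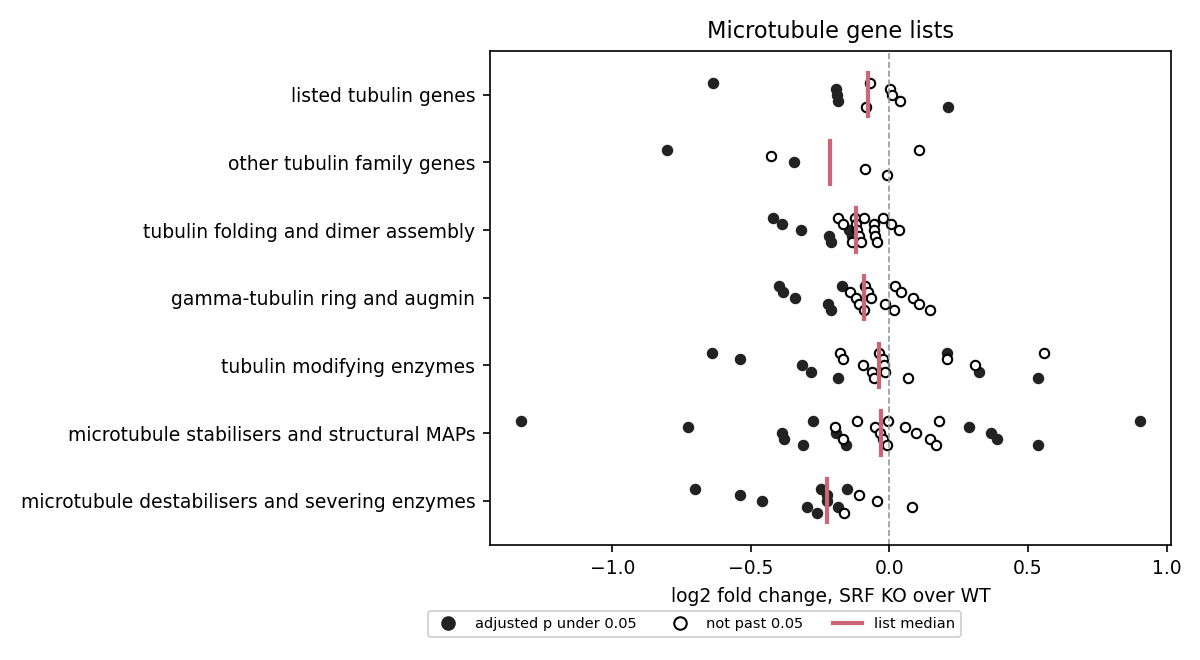
Log2 fold change of SRF KO over WT (horizontal axis) of each tested gene in the listed tubulin genes and in 6 lists of related genes, filled where the adjusted p was under 0.05, with a red bar at each list's median. All 10 filled points of the destabilisers and severing enzymes lie below 0, and the structural proteins spread from Map2 at -1.33 to Dclk1 at 0.91.

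The genes whose profile over the 6 libraries was most like that of Tubb2b were Tmem194b, Sall1 and Frem2, with root mean square differences of 0.02, 0.0251 and 0.0293 in centred log2 CPM among 12343 genes compared. Their log2 fold changes were -0.64, -0.65 and -0.60. The difference between genotypes is part of each profile, so like fold changes follow from how these genes were chosen. Among the members themselves, Tuba1b and Tuba4a had the most similar profiles (0.0277) and Tubb2b and Tubb4b the least similar (0.43).

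Promoter windows of 300 bases (250 before and 50 after the start, RefSeq, GRCm38.p6) matched 7 of the 10 members, all but Tubb2b, Tubb6 and Tubg1. The CArG box was found in 0 of the 7 windows and in 1.63% of all 32851 windows, which says only that this motif is not in these windows. The letters CCAAT on either strand stood 5 times in the Tubb4b window and 2 times in that of Tubb5, and 37.4% of all windows hold them at least once. The letters GGGCGG on either strand stood 2 times in each of these windows, and 35.7% of all windows hold them. The 150 bases before the start are shown for these 2 genes because their levels moved in opposite directions, on the minus strand at chr2:25224703-25224852 for Tubb4b and chr17:35838302-35838451 for Tubb5, with CCAAT and GGGCGG of either strand in capitals. The capitals at the end of each run begin a GGGCGG match, on either strand, that goes on past the last base shown.
Tubb4b: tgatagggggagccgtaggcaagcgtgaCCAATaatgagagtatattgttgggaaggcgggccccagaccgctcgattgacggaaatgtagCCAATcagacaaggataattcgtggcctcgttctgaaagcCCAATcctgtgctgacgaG
Tubb5: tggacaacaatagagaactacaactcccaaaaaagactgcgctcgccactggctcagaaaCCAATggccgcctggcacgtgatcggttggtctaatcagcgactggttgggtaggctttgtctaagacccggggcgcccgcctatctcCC

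By the GENCODE M21 annotation of GRCm38, Tuba1a (98949837 to 98953703, minus strand), Tuba1b (98931425 to 98934565, minus) and Tuba1c (99029891 to 99038110, plus) are neighbours on chromosome 15, and of these 3 only Tuba1a passed the test. Tubb2a (34074274 to 34078007) and Tubb2b (34126748 to 34130466) are neighbours on the minus strand of chromosome 13, and of these only Tubb2b passed. The other members lie apart, with Tuba4a on chromosome 1 (75214228 to 75219865, minus), Tubb4b on chromosome 2 (25222160 to 25224702, minus), Tubg1 on chromosome 11 (101119938 to 101126419, plus), Tubb5 on chromosome 17 (35833921 to 35838306, minus) and Tubb6 on chromosome 18 (67390717 to 67402749, plus). The transcript used for each member has 4 exons, except that of Tubg1, which has 11. The difference in response between neighbours was not tested.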

How the data were processed

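Per the labels' protocols, total RNA was taken with TRIzol and 150 bp paired reads were cleaned of adaptors, low-quality and empty reads. The authors deposited 1 table of whole-number read counts per gene and transposable element subfamily for 3 SRF KO and 3 WT libraries. The submitters' processing notes name mm10 and DESeq2. The aligner, the counting program, the annotation and the use of strand are not given in the sources used here, so reads of overlapping genes and near copies may be assigned in ways that cannot be checked.

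In R 4.3.3, entries with low counts were removed with filterByExpr (minimum count 10), libraries were scaled with TMM, and SRF KO was compared with WT over 15611 entries (14778 of them genes) by the quasi-likelihood test of edgeR 4.0.16, its p-values adjusted over all of them (Benjamini-Hochberg, threshold 0.05). Levels per kilobase used the union of exons in GENCODE M21. Standard errors and 95% intervals of log2 fold changes are on the scale of that fit. On simulated counts for the 15611 entries of this comparison, it recovered 78% of 100 genes changed 1.5-fold and 95% of 100 changed 2-fold, with 3.89% false calls. The simulation gave all entries the same spread between libraries and held no change smaller than 1.5-fold. The recovered shares therefore do not bear on smaller changes, such as those of Tubb4b, Tuba1a, Tubb5 and Tubg1. DESeq2 1.42.0, other scalings, filters and lengths, a replicate block and leaving out each library were tried as alternatives. Depth was 26321602 to 36680156 counts, where 3 counts (the limit that a count of 0 allows) are 0.0828 to 0.117 CPM, for counting error only. Replicates differed beyond sampling noise, and replicate 2 stood apart most in each genotype. Chi-square per degree of freedom was 12.9 and 15.5 for pairs with WT replicate 2 and 3.80 for WT replicates 1 and 3. It was 4.15 and 5.13 for pairs with SRF KO replicate 2 and 1.83 for SRF KO replicates 1 and 3.

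The members and gene lists were chosen with earlier results of these data known. Named genes are all members, Srf, the tested tubulin family genes, up to 3 genes per direction of each other pathway list with the smallest adjusted p and a mean of at least 50 counts, the 3 nearest profiles to Tubb2b (those to Tubb4b are not reported here), and up to 3 leading markers per list, of which those that bear on a result are given. Transposable elements are not reported here.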

Additional observations from a re-analysis of the deposited data

How the results depend on the processing

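Under every alternative run, Tubb2b kept its direction and call. Of the alternatives for member fold changes, 102 left the call as it was, 23 ended a call and 5 turned the sign of a member that had not passed. The count of members that fell (4) was 1 with scaling to library totals and 1 at an adjusted p under 0.01, where 0 rose by edgeR (1 at an unadjusted p under 0.05, and 1 by DESeq2 at 0.05). Leaving out 1 library gave 1 to 4 lower and 0 to 1 higher members, with 0 higher without SRF KO replicate 1 or 3 (1 at an unadjusted p under 0.05 in each). At an unadjusted p under 0.05, leaving out 1 library gave 3 to 5 lower members, and library totals gave 4. The count of genes that fell over the 5 lists and the other tubulin genes (38) was 24 at 0.01 and 25 to 43 with 1 library left out, with 25 without SRF KO replicate 1. The shares of all genes that passed at these other settings are not given here. Neither this count nor that of the members can therefore be set against the background there.

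With 1 library left out, log2 fold changes ran from -0.0507 to 0.0436 for Tuba1b, from -0.0577 to 0.0494 for Tuba4a, from -0.0202 to 0.0827 for Tubb6, from -0.0691 to 0.2438 for Tuba3a (-0.0109 without WT replicate 2) and from -0.0738 to 0.0342 for Tubb3. Tubb3 was at 0.0014 with DESeq2, 0.0012 with RLE scaling and 0.0278 with library totals. The difference in the Tubb4b share was 6.75 percentage points, and 5.48 with no length scaling. No scaling moved the median of all genes by more than 0.04.

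Deviations of same-numbered libraries correlated at 0.0679, 0.381 and 0.229, and those of libraries with different numbers at -0.425 to 0.279. Whether same-numbered libraries share a batch was not tested, and the labels do not say. With a replicate block, 1 member was higher and 4 lower, and 14 genes of the folding list fell in place of 7. SRF KO replicate 1 correlated best with WT replicate 3 (0.279), and SRF KO replicates 2 and 3 with their own number.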
